A study of Arabidopsis thaliana with 22 samples.

Results

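RNA-seq libraries of *Arabidopsis thaliana* seedlings were used to ask in which genes the change in transcript level between 24 h and 72 h of NaCl treatment differed between *lrx345* and the wild type. The members are 12 of the 22 libraries of the series, with 3 libraries in each of 4 groups, and 21831 of the 33602 genes in the count table that had enough counts to be tested. The wild type was the Col-0 ecotype, and *lrx345* is a triple mutant with T-DNA insertions in LRX genes, studied here as a single line. The methods give 10-day-old seedlings, and both genotypes were treated with 150 mM NaCl for 24 h or 72 h. Untreated seedlings at 24 h and 72 h are not among the libraries used here, so that the duration of salt and the further growth of the seedlings cannot be told apart. The interaction is the log2 change of *lrx345* from 24 h to 72 h minus the log2 change of the wild type. An upward interaction means that *lrx345* rose more or fell less than the wild type, a downward interaction the reverse, and a gene is called when its p-value, adjusted over all genes tested (quasi-likelihood test of edgeR, Benjamini-Hochberg method), was under 0.05.

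LRX proteins are extensins of the cell wall with leucine-rich repeats. They bind RALF peptides, which are ligands of the receptor kinase FERONIA, and together these proteins form a module that senses the state of the wall. Under salt, abscisic acid (ABA) induces protective proteins such as LEA proteins and dehydrins, while jasmonic acid (JA) and salicylic acid (SA) are hormones mainly known for defence. Prolonged salt commonly lowers the transcripts of photosynthesis and growth genes, and misfolded proteins induce heat shock proteins, which act as chaperones.

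The labels were first checked on the mutated genes. The genotyping primers of the 3 insertion lines match *LRX3* (AT4G13340), AT3G24480 and AT4G18670, all of which code for leucine-rich repeat proteins. *LRX3* was at 59.2 to 80.6 FPKM (counted fragments scaled to gene length and library size) in the 6 wild type libraries and at 15.9 to 37.2 in the 6 *lrx345* libraries. AT3G24480 was at 73.2 to 124 against 40.9 to 58.9, and AT4G18670 at 36.6 to 70.0 against 5.09 to 12.6 FPKM. In each of these genes all *lrx345* libraries lay below all wild type libraries, in the direction of the labels. The 12 libraries held 7413461 to 14869697 counts. Nuclear photosynthesis genes, used as shoot markers, took 6.82% to 7.23% of the counts in the wild type at 24 h, 5.55% to 6.25% at 72 h, 4.39% to 4.74% in *lrx345* at 24 h and 2.23% to 2.70% at 72 h. For the root markers the corresponding shares were 0.0705% to 0.0720%, 0.0905% to 0.100%, 0.0273% to 0.0319% and 0.0528% to 0.0551%. Organelle transcripts took 0.116% to 0.971%. No member of either marker list stayed at 3 counts or fewer in all 12 libraries, and 37 of 37 shoot and 27 of 29 root markers had enough counts to be tested. The shares of counts moved with genotype and time, and their part in the results was not tested. In whole seedlings, fewer cells of a type and less RNA per cell cannot be told apart.

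The change from 24 h to 72 h differed between the genotypes for 6385 genes, 29.2% of those tested. The interaction was upward for 3111 genes (14.3%) and downward for 3274 (15%), and with a size over 1 on the log2 scale it was upward for 1440 genes (6.6%) and downward for 1282 (5.87%). Over all genes the median interaction was 0.0032, and the range from the 5th to the 95th percentile was -1.39 to 1.59, with a median standard error of 0.20. Within genotypes, 11262 genes (51.6%) changed from 24 h to 72 h in *lrx345* and 8797 (40.3%) in the wild type. Among the genes with an interaction, 68.2% had the larger change, regardless of sign, in *lrx345*. Over all genes tested, this held for 13049 of 21831, so that most genes without an interaction also lay on this side. The methods call the replicates biological, the labels do not say whether they came from separate cultures, and the p-values measure the spread between these libraries.

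**Figure D1:**
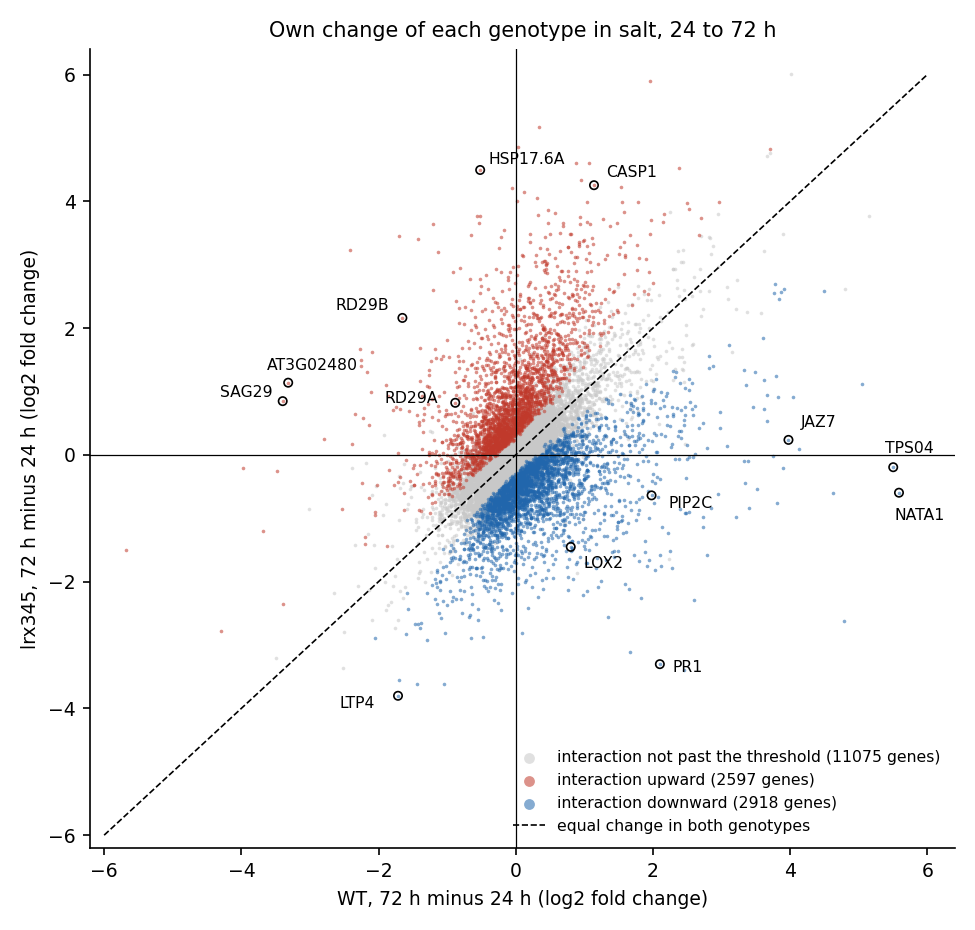
Change from 24 h to 72 h of NaCl in *lrx345* (vertical axis, log2) against the change in the wild type (horizontal axis, log2), 1 point for each of the 16590 genes with a mean count of at least 50, of which 5515 had an interaction. Genes with an upward interaction (red) lie above the dashed line of equal change and genes with a downward interaction (blue) below it, and circles mark genes described in the text such as *RD29B*, where *lrx345* rose and the wild type fell.

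The commonest upward interaction was a rise in *lrx345* with no change past the threshold in the wild type. Of the 3111 genes, 1488 rose in *lrx345* while the wild type change did not pass the test, 527 rose in both genotypes, 546 fell in the wild type with no change past the threshold in *lrx345*, and 357 rose in *lrx345* and fell in the wild type. Another 107 fell in both, less so in *lrx345*. The downward interactions were spread more evenly. Of the 3274 genes, 1329 fell in *lrx345* only by this test, 712 rose in the wild type with no change past the threshold in *lrx345*, 526 fell in *lrx345* and rose in the wild type, 452 fell in both and 164 rose in both. Genes that moved in opposite directions made up 1.64% (*lrx345* rose and the wild type fell) and 2.41% (*lrx345* fell and the wild type rose) of all genes tested. Over the 16590 genes with a mean count of at least 50, the changes of the genotypes had a Pearson correlation of 0.441 (Spearman 0.479). This correlation is across genes, which are not independent replicates, and all points share the same libraries.

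**Figure D2:**
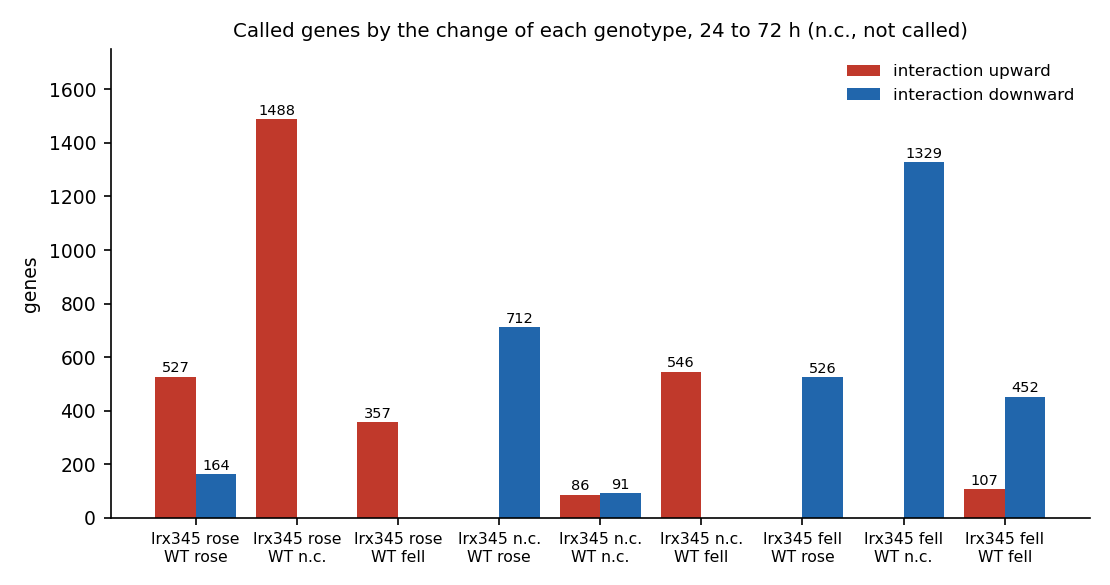
Number of genes with an upward or downward interaction, split by whether the transcript rose, fell or did not pass the test in each genotype from 24 h to 72 h (n.c.). The largest class of the upward genes rose in *lrx345* without a change past the threshold in the wild type (1488 genes), and the largest class of the downward genes fell in *lrx345* without one (1329 genes).

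The same genes were read as genotype differences at each time, which passed the test for 52.7% of all genes at 24 h (24.3% higher and 28.4% lower in *lrx345*) and 62.1% at 72 h (31.3% higher and 30.7% lower). Of the upward genes, 1295 did not differ past the threshold at 24 h and were higher in *lrx345* at 72 h, 641 were higher at both times, 578 were lower at 24 h only, and 368 turned from lower to higher. Of the downward genes, 913 became lower at 72 h, 776 remained higher, 734 remained lower, 585 were higher at 24 h only, and 237 turned from higher to lower. The genotype difference was larger in size at 72 h than at 24 h for 69.5% of the upward and 54.1% of the downward genes. These differences use the same libraries as the interaction and are its parts, not further evidence.

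Most protective genes of the ABA response rose in *lrx345* between 24 h and 72 h, and about as many fell in the wild type as did not. Over all genes tested, 14.3% had an upward and 15% a downward interaction, the shares to set beside each list below. Among LEA, dehydrin, RD and COR genes, 13 of 25 tested members had an upward and 5 a downward interaction, with a median of 0.90 on the log2 scale, against 0.0032 over all genes tested. In the list, 17 members rose in *lrx345* and 12 fell in the wild type (all genes: 26.3% and 19.6%). *RD29A* (AT5G52310), a classical marker of salt, cold and ABA responses, was at 95.2, 138 and 121 FPKM in the wild type at 24 h and 68.6, 65.1 and 58.6 at 72 h. In *lrx345* it was at 208, 127 and 134 at 24 h and 321, 216 and 292 at 72 h. All 3 *lrx345* libraries at 72 h lay above the other 9 libraries, and all 3 wild type libraries at 72 h lay below them. The change was 0.82 in *lrx345* (adjusted p = 4.47e-04) and -0.88 in the wild type (adjusted p = 3.94e-04), and the interaction was 1.70 (SE 0.25, adjusted p = 1.66e-05). Its neighbour *RD29B* (AT5G52300), which depends more strictly on ABA, was at 9.47, 11.9 and 11.2 FPKM in the wild type at 24 h and 4.29, 3.82 and 2.18 at 72 h. The *lrx345* levels were 16.9, 12.6 and 9.66 at 24 h and 68.5, 45.8 and 62.0 at 72 h. The groups were ordered in the same way, without overlap of either 72 h group with the rest. Its changes were 2.16 in *lrx345* (adjusted p = 2.53e-08) and -1.65 in the wild type (adjusted p = 1.95e-05), and its interaction was 3.81 (SE 0.34, adjusted p = 1.10e-08). *RD29A* and *RD29B* are adjacent and similar in sequence, and fragments that fitted both were left out, so that their levels could be too low.

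AT3G02480, a LEA family gene that is not in the list, had a larger interaction than any list member. It was at 54.8, 44.3 and 49.97 FPKM in the wild type at 24 h and 8.77, 2.22 and 3.29 at 72 h. Levels in *lrx345* were 94.5, 67.2 and 58.7 at 24 h and 129.6, 127 and 229 at 72 h. In the wild type its level dropped to a small part of that at 24 h in every library, whereas every *lrx345* library at 72 h was above the others. The interaction was 4.46 (SE 0.40, adjusted p = 1.70e-08). *LEA7* was at 21.2, 21.2 and 26.5 FPKM in the wild type at 24 h and 5.67, 5.46 and 3.08 at 72 h. The mutant libraries had 59.6, 65.5 and 34.5 at 24 h and 188, 135 and 189.6 at 72 h, again with the *lrx345* libraries at 72 h highest and the wild type libraries at 72 h lowest, and its interaction was 3.94 (SE 0.33, adjusted p = 4.68e-09). The dehydrin gene *RAB18* was at 9.74, 15.5 and 9.92 FPKM in the wild type at 24 h and 10.7, 14 and 9.14 at 72 h. At 24 h *lrx345* stood at 35.9, 27.4 and 24.3, followed by 176, 129 and 178 at 72 h. It rose in *lrx345* and stayed within its 24 h range in the wild type apart from 9.14 FPKM in a single library, with an interaction of 2.51 (SE 0.26, adjusted p = 1.10e-07). The dehydrin gene *LTI30* (2.63, SE 0.23, adjusted p = 1.29e-08), *LEA4-5* (2.47, SE 0.25, adjusted p = 6.44e-08) and AT1G16850 (2.60, SE 0.27, adjusted p = 1.11e-07), whose product is uncharacterized, also had upward interactions.

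Members of the same list went the other way. *RD22*, a dehydration-responsive BURP domain gene, was at 168, 257 and 228 FPKM in the wild type at 24 h and 189, 204 and 249 at 72 h. For *lrx345* the values were 272, 199 and 217 at 24 h and 83.6, 60.8 and 69.3 at 72 h. The *lrx345* libraries at 72 h were below the other 9, which overlapped each other, and the interaction was -1.66 (SE 0.22, adjusted p = 3.65e-06). The lipid transfer protein gene *LTP4* fell in both genotypes and fell further in *lrx345*, with an interaction of -2.09 (SE 0.29, adjusted p = 8.12e-06). *RD20*, which codes for a caleosin, rose in both genotypes and rose more in the wild type, from 3.83 ± 0.625 to 33.2 ± 3.53 FPKM (SD, n = 3) against 41.1 ± 15.1 to 138 ± 21.6 in *lrx345*, and its interaction was -1.37 (SE 0.28, adjusted p = 5.94e-04). *KIN2* (0.49, SE 0.33, adjusted p = 0.29) and *COR15B* (-0.38, SE 0.32, adjusted p = 0.397) did not pass the threshold.

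The sequences upstream of the ABA marker genes and of 3 of the named genes that moved most are shown so that known response elements can be read beside the values. Each is the 250 bases before the annotated gene start in TAIR10, 5′ to 3′ on the gene's strand, at chr5:21240599-21240848, plus strand for *RD29A*, chr5:21236806-21237055, plus strand for *RD29B*, chr3:512062-512311, plus strand for AT3G02480, chr3:16984842-16985091, minus strand for *HSP17.4* and chr2:16297977-16298226, plus strand for *NATA1*. The last 3 were chosen after their values were seen. Capitals mark ACGTG (the core of the ABA-responsive element), CCGAC (the core of the dehydration-responsive element), TTGAC (the core of the W-box) and GAANNTTC (a heat shock element unit, added after the heat shock genes were seen) on either strand, and neighbouring matches can overlap.
RD29A: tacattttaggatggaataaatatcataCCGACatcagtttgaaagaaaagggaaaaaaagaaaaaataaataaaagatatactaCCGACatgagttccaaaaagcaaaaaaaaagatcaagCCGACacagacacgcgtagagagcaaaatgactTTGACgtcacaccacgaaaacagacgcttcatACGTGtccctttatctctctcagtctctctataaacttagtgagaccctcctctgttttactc
RD29B: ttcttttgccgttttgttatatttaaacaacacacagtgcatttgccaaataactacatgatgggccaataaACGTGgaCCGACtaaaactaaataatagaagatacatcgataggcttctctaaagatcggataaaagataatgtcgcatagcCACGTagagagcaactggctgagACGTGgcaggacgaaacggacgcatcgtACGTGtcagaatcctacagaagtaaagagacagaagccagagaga
AT3G02480: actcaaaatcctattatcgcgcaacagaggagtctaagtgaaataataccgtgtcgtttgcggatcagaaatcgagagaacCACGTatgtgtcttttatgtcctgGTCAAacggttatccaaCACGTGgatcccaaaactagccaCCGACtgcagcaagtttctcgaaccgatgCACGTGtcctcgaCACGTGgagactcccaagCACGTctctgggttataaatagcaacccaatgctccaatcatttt
HSP17.4: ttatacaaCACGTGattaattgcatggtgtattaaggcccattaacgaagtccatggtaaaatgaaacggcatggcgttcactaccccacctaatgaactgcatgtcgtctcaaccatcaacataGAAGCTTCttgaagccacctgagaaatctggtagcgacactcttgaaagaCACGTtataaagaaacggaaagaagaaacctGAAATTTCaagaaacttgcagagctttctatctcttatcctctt
NATA1: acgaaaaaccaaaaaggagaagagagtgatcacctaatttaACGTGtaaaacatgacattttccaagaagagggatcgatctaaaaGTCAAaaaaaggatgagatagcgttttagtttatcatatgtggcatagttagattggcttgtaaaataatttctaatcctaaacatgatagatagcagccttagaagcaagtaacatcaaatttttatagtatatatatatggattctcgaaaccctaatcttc
*RD29A* held 3 CCGAC matches and 1 ACGTG match, *RD29B* 4 ACGTG matches and AT3G02480 8, counting a palindromic CACGTG on both strands. *HSP17.4* held 2 GAANNTTC matches. A match is a description of the letters in this window.

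Over the 21714 upstream regions of the same length, 26.5% held ACGTG, compared with 33.1% of the upward and 31.7% of the downward genes with a size over 1. For CCGAC the shares were 14.1%, 13.8% and 10.9%, and for TTGAC 45.2%, 45.5% and 51.9%. GAANNTTC was found in 9.87%, 10.2% and 13.8%. In the LEA, dehydrin, RD and COR list 21 of 25 regions held ACGTG and 13 CCGAC. Matches to ACGTG were also found in lists with mostly downward calls, in 20 of 27 JA synthesis and JAZ genes and 21 of 37 photosynthesis genes. No test was made of these shares.

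In ABA signalling, phosphatase genes of the HAI group had upward interactions and 3 receptor genes had downward ones. Among receptors, clade A PP2C phosphatases, SnRK2 kinases and ABF transcription factors, 12 of 25 tested members had an upward and 4 a downward interaction, with a median of 0.38 on the log2 scale, and the upward count was 6 without wild type replicate 2 at 72 h. *HAI2*, a phosphatase gene that ABA induces and that restrains ABA signalling, was at 4.45, 5.43 and 4.91 FPKM in the wild type at 24 h and 1.8, 1.19 and 0.897 at 72 h. Those of *lrx345* were 21.4, 19.7 and 19 at 24 h and 45.8, 38.5 and 44.3 at 72 h. The *lrx345* libraries at 72 h were above and the wild type libraries at 72 h below all others, and the interaction was 2.99 (SE 0.20, adjusted p = 1.57e-10). *HAI3* moved alike (2.99, SE 0.26, adjusted p = 8.39e-09), and *HAI1* rose in *lrx345* with an interaction of 1.11 (SE 0.21, adjusted p = 2.64e-04). The receptor gene *PYL8* was at 44.6, 46.7 and 46.5 FPKM in the wild type at 24 h and 63.1, 63.8 and 69.5 at 72 h. In *lrx345* it was at 40.8, 41.6 and 36.4 at 24 h and 27.4, 29.6 and 28.4 at 72 h. It rose in the wild type and fell in *lrx345*, with an interaction of -0.99 (SE 0.13, adjusted p = 3.68e-06), and the receptor genes *PYL1* (-0.94, SE 0.23, adjusted p = 0.00317) and *PYL5* (-0.72, SE 0.17, adjusted p = 0.00232) were also downward. The kinase gene *SNRK2.2*, the list's highest member, had -0.12 (SE 0.14, adjusted p = 0.555).

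Genes of ABA synthesis, release and breakdown were mixed. In this list 2 of 13 tested members (15.4%) had an upward and 3 (23.1%) a downward interaction, near the shares over all genes (14.3% and 15%). The median was 0.35 on the log2 scale. *CYP707A1*, which codes for an ABA hydroxylase that breaks ABA down, was at 12.3, 14.2 and 14.6 FPKM in the wild type at 24 h and 19.4, 13.6 and 13.2 at 72 h. The *lrx345* levels were 33.2, 27.6 and 28 at 24 h and 208, 149 and 204 at 72 h. The wild type levels overlapped between the times while *lrx345* rose 6.31-fold, and the interaction was 2.48 (SE 0.20, adjusted p = 2.59e-09). *BGLU18*, whose β-glucosidase releases ABA from its glucose ester, was at 99.6, 109.5 and 111 FPKM in the wild type at 24 h and 267, 292 and 197 at 72 h. Levels in *lrx345* were 4934, 3526 and 3718 at 24 h and 3129, 2789 and 2623 at 72 h. The wild type rose and *lrx345* fell, though every *lrx345* library stayed above every wild type library at both times, and the interaction was -1.75 (SE 0.21, adjusted p = 9.13e-07). The ABA glucosyltransferase gene *UGT71B6* was downward (-1.55, SE 0.29, adjusted p = 2.55e-04).

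Heat shock protein genes gave the most uniform list. Of the small heat shock proteins, chaperones and their regulators, 14 of 14 tested members had an upward interaction and 0 a downward one, with a median of 3.56 on the log2 scale. The list's sum was 228 to 287 FPKM in the wild type at 24 h, 151 to 154 at 72 h, 223 to 270.0 in *lrx345* at 24 h and 986 to 1412 at 72 h. *HSP17.4* (AT3G46230), a cytosolic class I small heat shock protein, was at 6.80, 7.54 and 8.69 FPKM in the wild type at 24 h and 4.61, 2.64 and 2.57 at 72 h. The mutant libraries had 13.1, 9.31 and 9.68 at 24 h and 148, 109 and 144 at 72 h. The *lrx345* libraries at 72 h were at 109 FPKM or higher, and none of the other 9 exceeded 13.1 FPKM. Its changes were 3.64 in *lrx345* (adjusted p = 3.10e-13) and -1.2 in the wild type (adjusted p = 4.79e-04), and the interaction was 4.84 (SE 0.31, adjusted p = 7.32e-11). *HSP17.6A* (AT5G12030) was at 4.46, 7.13 and 8.24 FPKM in the wild type at 24 h and 5.50, 4.74 and 3.57 at 72 h. At 24 h *lrx345* stood at 12.8, 8.14 and 8.89, followed by 253, 155 and 265 at 72 h, a 22.6-fold rise in *lrx345* with overlapping wild type times, and its interaction was 5.01 (SE 0.38, adjusted p = 9.06e-10). AT1G53540, another small heat shock protein gene, had 4.83 (SE 0.38, adjusted p = 1.90e-09), and the mitochondrial *HSP23.6* 4.27 (SE 0.51, adjusted p = 9.89e-07).

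The other chaperones of the list were named after their values were seen. *HSP101*, a disaggregase needed for heat tolerance, averaged 5.34 and 4.53 FPKM in the wild type and 6.48 and 62.5 in *lrx345* at 24 and 72 h, with an interaction of 3.51 (SE 0.19, adjusted p = 8.22e-12). *HSFA2*, a heat shock transcription factor, averaged 1.71, 3.21, 9.96 and 97.4 FPKM in the same order, with an interaction of 2.36 (SE 0.28, adjusted p = 1.16e-06). In the upward list, *HSP22* and *HSP18.2* were exceptions in that both fell in both genotypes. *HSP22*, of the endoplasmic reticulum, changed by -1.51 in *lrx345* and -5.69 in the wild type, and *HSP18.2* by -1.29 and -2.2. The co-chaperone gene *ROF1* had an interaction of 1.2 (SE 0.15, adjusted p = 2.69e-06). Class I small heat shock protein genes are similar in sequence, and fragments that fitted several of them were left out, so that their levels could be too low.

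The 10 largest upward interactions among genes with a mean count of at least 50 that were called in all 12 leave-one-out fits included 3 heat shock genes and AT3G02480, given above, and 6 others. *NAS2* (AT5G56080), a nicotianamine synthase of metal transport, was at 2.92, 2.48 and 2.66 FPKM in the wild type at 24 h and 0.277, 0.863 and 0.403 at 72 h. For *lrx345* the values were 1.42, 2.56 and 1.89 at 24 h and 23.8, 13.8 and 18.8 at 72 h. It fell in the wild type and rose in *lrx345*, with an interaction of 5.64 (SE 0.62, adjusted p = 2.90e-07). The transporter gene *UMAMIT9* moved in the same way (5.15, SE 0.52, adjusted p = 4.10e-07), as did *TIN1*, a gene induced by tunicamycin, which blocks protein glycosylation (4.33, SE 0.45, adjusted p = 1.27e-07), and AT4G31520, an SDA1 family gene (4.84, SE 0.35, adjusted p = 4.89e-10). AT5G16980, annotated as a zinc-binding dehydrogenase, was at 1.15, 0.938 and 1.71 FPKM in the wild type at 24 h and 2.02, 1.56 and 1.27 at 72 h. Those of *lrx345* were 1.52, 1.66 and 2.86 at 24 h and 75.9, 57.8 and 82.3 at 72 h. The wild type did not exceed 2.02 FPKM at either time, *lrx345* at 72 h was at least 57.8, and the interaction was 4.84 (SE 0.46, adjusted p = 4.05e-08). AT5G01570, a plectin-like protein gene, had 4.33 (SE 0.40, adjusted p = 2.00e-08). In each of these 6 genes, every *lrx345* library at 72 h lay above the other 9 libraries. The genes were chosen by the size and stability of the interaction in the same libraries, so that this order is no further evidence.

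Genes for compatible solutes and their relatives followed. Among proline, galactinol and raffinose genes, 6 of 11 tested members had an upward and 2 a downward interaction, with a median of 1.07 on the log2 scale. *GOLS4*, a galactinol synthase of the raffinose pathway, was at 17.9, 15.68 and 17.57 FPKM in the wild type at 24 h and 7.16, 6.81 and 5.38 at 72 h. In *lrx345* it was at 31.9, 32 and 25.5 at 24 h and 67.6, 63.5 and 71.0 at 72 h, highest in *lrx345* and lowest in the wild type at 72 h, and its interaction was 2.57 (SE 0.22, adjusted p = 8.39e-09). *GOLS1* (1.4, SE 0.15, adjusted p = 2.83e-07) and *P5CDH*, of proline breakdown (1.07, SE 0.12, adjusted p = 4.10e-07), were upward. *P5CS1*, the main proline synthesis gene under salt, rose in both genotypes, by 1.48 in *lrx345* and 1.39 in the wild type, and its interaction of 0.089 (SE 0.16, adjusted p = 0.716) did not pass the threshold. Its relative *P5CS2* (-0.47, SE 0.11, adjusted p = 0.00271) and the raffinose synthase gene *RS5* (-0.66, SE 0.14, adjusted p = 6.67e-04) were downward. *SAG29*, a SWEET family sugar transporter gene induced by salt and senescence, was at 13.4, 16.2 and 12.6 FPKM in the wild type at 24 h and 1.54, 0.702 and 1.67 at 72 h. The *lrx345* levels were 10.7, 11.9 and 10.8 at 24 h and 16.9, 20.6 and 22.5 at 72 h. The *lrx345* libraries at 72 h were the highest and the wild type libraries at 72 h the lowest, and the interaction was 4.25 (SE 0.31, adjusted p = 6.27e-10).

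**Figure D3:**
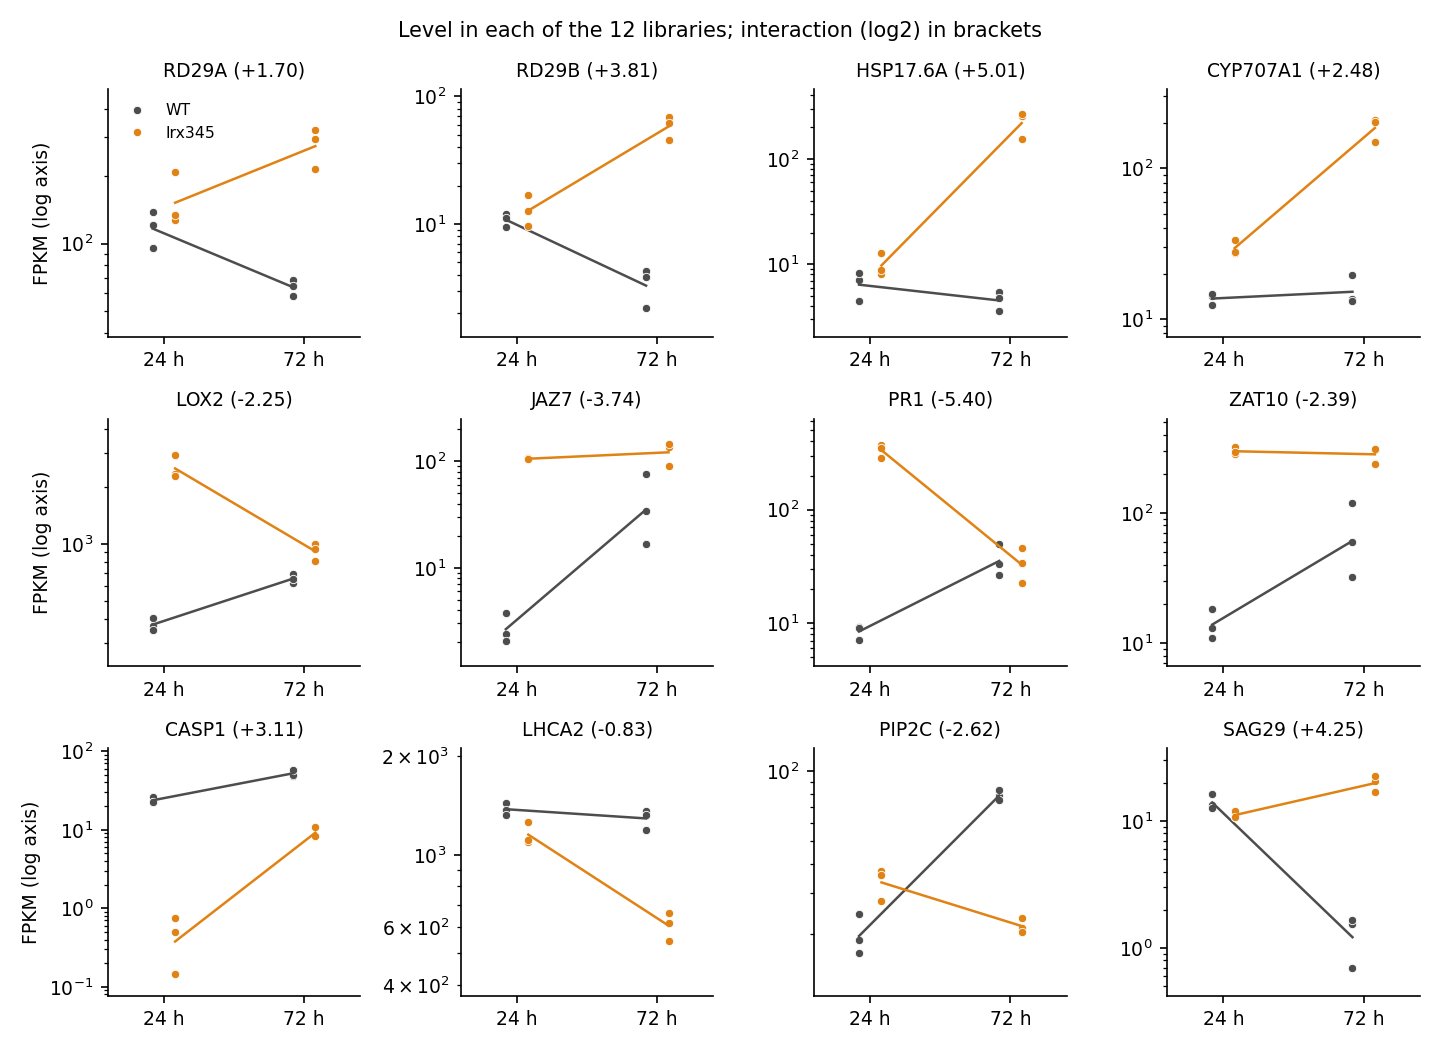
Transcript levels (FPKM, log axis) of 12 genes in each of the 12 libraries, by genotype and time, with 1 point per library and lines joining the group means. *RD29A* and *RD29B* sit highest in *lrx345* at 72 h and lowest in the wild type at 72 h, and the lines of *PR1*, *LOX2* and *PIP2C* run in opposite directions in the genotypes.

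The excess of JA transcripts in *lrx345* was smaller at 72 h than at 24 h, with a median genotype difference of 3.20 at 24 h and 1.37 at 72 h on the log2 scale. Among JA synthesis and JAZ genes, 4 of 27 tested members had an upward and 19 a downward interaction, with a median of -1.71 on the log2 scale, and 24 members rose in the wild type while 14 fell in *lrx345* (all genes: 20.7% and 25.3%). The list's sum was 1097 to 1133 FPKM in the wild type at 24 h and 1755 to 2297 at 72 h, against 7519 to 8587 and 4128 to 4314 in *lrx345*. *LOX2*, which codes for a chloroplast lipoxygenase of JA synthesis, was at 406, 369.5 and 354 FPKM in the wild type at 24 h and 694, 625 and 649.7 at 72 h. Levels in *lrx345* were 2928, 2314 and 2275 at 24 h and 1002, 935 and 811 at 72 h. It rose in the wild type and fell in *lrx345*, whose 24 h libraries were above all others, and the interaction was -2.25 (SE 0.16, adjusted p = 6.42e-10). The lipoxygenase gene *LOX4* moved in the same way (-3.67, SE 0.35, adjusted p = 4.02e-08). *JAZ8*, which codes for a repressor that JA itself induces, was at 0.468, 1.36 and 0.551 FPKM in the wild type at 24 h and 20.4, 10.2 and 3.85 at 72 h. The mutant libraries had 72.8, 75.5 and 57.9 at 24 h and 43.4, 68.3 and 66.1 at 72 h. All *lrx345* libraries were above all wild type libraries and overlapped between the times, while the wild type rose, so that the interaction was -4.11 (SE 0.66, adjusted p = 4.74e-05). *JAZ7* had -3.74 (SE 0.57, adjusted p = 2.38e-05). *AOS*, an allene oxide synthase, averaged 53.2 and 94.9 FPKM in the wild type and 589 and 152 in *lrx345*, with -2.79 (SE 0.17, adjusted p = 6.39e-11), and was named after its value was seen. Upward members were *JAZ4* (2.0, SE 0.38, adjusted p = 3.13e-04) and *LOX6* (0.76, SE 0.14, adjusted p = 1.66e-04), and the upward count fell to 2 in 7 of the 12 fits that left out a library.

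JA-responsive defence genes had the lowest median of all lists. In this list 1 of 12 tested members had an upward and 7 a downward interaction, with a median of -3.33 on the log2 scale, or -3.12 with *PDF1.2b*, which had no count in the wild type at 24 h, set at a floor of 3 counts over the group. *ORA59*, which codes for a transcription factor that joins JA and ethylene signals, was at 6.14, 4.63 and 5.67 FPKM in the wild type at 24 h and 18.6, 11.6 and 11.3 at 72 h. At 24 h *lrx345* stood at 44.5, 44.0 and 36, followed by 7.62, 7.85 and 5.76 at 72 h. It rose in the wild type and fell in *lrx345* to levels below those of the wild type at 72 h, with an interaction of -3.9 (SE 0.27, adjusted p = 2.76e-10). *ERF1* behaved likewise (-4.06, SE 0.46, adjusted p = 4.37e-07), without the crossing. The defensin gene *PDF1.2c* was at 0.194, 0.423 and 0.171 FPKM in the wild type at 24 h and 5.45, 3.85 and 2.06 at 72 h. For *lrx345* the values were 108, 50.8 and 47.0 at 24 h and 41.2, 33.5 and 46.9 at 72 h, with an interaction of -4.57 (SE 0.87, adjusted p = 3.36e-04). The *PDF1.2* copies are nearly identical, so that their single values are uncertain. *HEL*, also called *PR4*, was the list's highest member with 456 ± 45.5 and 1884 ± 490.2 FPKM in the wild type and 2236 ± 614 and 2031 ± 288 FPKM in *lrx345* at 24 and 72 h, and its interaction of -2.19 (SE 0.24, adjusted p = 2.63e-07) came from the rise in the wild type. *VSP1*, a storage protein gene of the other JA branch, was the upward exception, at 20.5 ± 0.664 and 24.4 ± 3.98 FPKM in the wild type and 113 ± 31.9 and 325 ± 33.1 FPKM in *lrx345* at 24 and 72 h, with 1.28 (SE 0.24, adjusted p = 3.14e-04).

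SA genes had mostly downward interactions. Among SA synthesis, signalling and PR genes, 2 of 16 tested members had an upward and 11 a downward interaction, with a median of -1.07 on the log2 scale. *PR1* (AT2G14610), the standard marker of SA signalling, was at 9.37, 9.07 and 7.15 FPKM in the wild type at 24 h and 26.7, 50.1 and 33.1 at 72 h. Those of *lrx345* were 372, 286 and 351 at 24 h and 34.2, 22.4 and 46.1 at 72 h. Libraries of *lrx345* at 24 h were the highest and the wild type libraries at 24 h the lowest, and the genotypes overlapped at 72 h. It changed by -3.30 in *lrx345* (adjusted p = 1.47e-09) and 2.1 in the wild type (adjusted p = 2.18e-05), and the interaction was -5.40 (SE 0.43, adjusted p = 2.10e-09). *PR2* (-3.47, SE 0.26, adjusted p = 8.11e-10) and *PR5* (-2.95, SE 0.28, adjusted p = 3.67e-08) also rose in the wild type and fell in *lrx345*. *ICS1*, an isochorismate synthase of SA synthesis that was named after its value was seen, averaged 15.5 and 11.9 FPKM in the wild type and 56.0 and 13.1 in *lrx345*, with -1.72 (SE 0.15, adjusted p = 7.49e-09). The SA receptor gene *NPR3* was upward (0.86, SE 0.13, adjusted p = 1.71e-05).

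Of the transcription factors of oxidative stress and the NADPH oxidases, 2 of 20 tested members had an upward and 11 a downward interaction, with a median of -0.85 on the log2 scale. *ZAT10*, a zinc finger gene of salt responses, was at 18.4, 13.1 and 11 FPKM in the wild type at 24 h and 119, 59.3 and 32 at 72 h. In *lrx345* it was at 283, 321 and 291 at 24 h and 237, 304 and 311 at 72 h. The *lrx345* libraries stayed high at both times and overlapped, the wild type rose but stayed below them, and the interaction was -2.39 (SE 0.39, adjusted p = 5.34e-05). *ZAT7* (-3.25, SE 0.48, adjusted p = 1.91e-05), *ERF105* (-2.57, SE 0.42, adjusted p = 5.49e-05), *ERF6* (-1.90, SE 0.30, adjusted p = 4.62e-05), *ZAT12* (-1.65, SE 0.44, adjusted p = 0.00693) and *WRKY33* (-1.42, SE 0.30, adjusted p = 9.99e-04) were also downward. *RBOHD*, which codes for an NADPH oxidase that makes superoxide, had 35.3 ± 2.99 and 52.2 ± 4.99 FPKM in the wild type and 152 ± 10.9 and 126 ± 0.986 FPKM in *lrx345* at 24 and 72 h and -0.83 (SE 0.14, adjusted p = 6.20e-05), while *RBOHF*, of the same family, was upward at 0.45 (SE 0.13, adjusted p = 0.0102). The wild type replicates at 72 h stood apart from each other in these lists. Replicate 1 had a summed level of 981 FPKM for the oxidative stress list, against 584 and 414 in replicates 2 and 3, and was also the highest for the JA lists. Without it the medians were -0.61 for the oxidative stress list, -1.4 for JA synthesis and JAZ genes and -2.81 for JA-responsive defence genes. The downward counts were then 10, 19 and 7, and the upward count of the JA list was 2.

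The 10 largest downward interactions chosen by the same rule included *PR1* and *PDF1.2c*, given above. *NATA1* (AT2G39030), an acetyltransferase gene that JA induces, was at 5.76, 5.20 and 4.61 FPKM in the wild type at 24 h and 365, 196 and 187 at 72 h. The *lrx345* levels were 1308, 1016 and 939.6 at 24 h and 834, 632 and 692 at 72 h. The wild type rose by 5.59 on the log2 scale and *lrx345*, already above all wild type libraries at 24 h, changed by -0.60, and the interaction was -6.18 (SE 0.31, adjusted p = 4.37e-12). AT1G59950, annotated as an oxidoreductase, had the largest size of the named genes at -7.41 (SE 0.88, adjusted p = 1.76e-06), with 0.121 ± 0.0542 and 3.51 ± 3.21 FPKM in the wild type and 16.8 ± 2.70 and 2.68 ± 0.598 FPKM in *lrx345* at 24 and 72 h. Its wild type level was near 0 at 24 h and uneven at 72 h (7.14, 2.33 and 1.05 FPKM). The size of this interaction is therefore uncertain. AT5G61160, annotated by product name only as an anthocyanin acyltransferase, was at 9.39, 9.32 and 11.1 FPKM in the wild type at 24 h and 83.6, 41.3 and 37.8 at 72 h. Levels in *lrx345* were 406, 311 and 314 at 24 h and 36.4, 32.5 and 29.8 at 72 h. The wild type rose, *lrx345* fell below it, and the interaction was -5.84 (SE 0.31, adjusted p = 5.82e-12). *TPS04*, a terpene synthase gene, was higher in every *lrx345* library than in any wild type library, rose only in the wild type by this test, and had -5.70 (SE 0.53, adjusted p = 2.31e-08). The kinase gene *MAPKKK19* (-5.24, SE 0.71, adjusted p = 5.15e-06), the MATE transporter gene AT3G23550 (-4.89, SE 0.32, adjusted p = 9.62e-11), the chitinase gene AT2G43580 (-4.77, SE 0.45, adjusted p = 3.71e-08) and the ERF-type transcription factor gene AT1G33760 (-4.37, SE 0.63, adjusted p = 1.32e-05) completed this group. In 8 of the 10 the rise of the wild type passed the test and so did the fall of *lrx345*.

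Senescence and starvation genes more often had downward than upward interactions. Among senescence and chlorophyll breakdown genes, 2 of 19 tested members had an upward and 9 a downward interaction, with a median of -0.44 on the log2 scale, and *SAG29* (above) was the largest upward one. *NYE1*, a Mg-dechelatase gene that starts chlorophyll breakdown, was at 4.72, 5.33 and 5.84 FPKM in the wild type at 24 h and 12.5, 11.2 and 11.8 at 72 h. The mutant libraries had 15.4, 11.5 and 9.66 at 24 h and 9.13, 7.61 and 9.76 at 72 h. It rose in the wild type and fell in *lrx345*, with -1.63 (SE 0.20, adjusted p = 1.64e-06), and its homologue *NYE2* did the same (-2.40, SE 0.36, adjusted p = 2.41e-05). *SAG13* (-3.49, SE 0.46, adjusted p = 3.46e-06) and *SAG21* (-1.21, SE 0.15, adjusted p = 2.40e-06), a LEA family gene, were downward. Of the genes that sugar starvation and darkness induce, 1 of 13 tested members had an upward and 6 a downward interaction, with a median of -0.18 on the log2 scale. Most of this list rose in both genotypes, 11 members in *lrx345* and 12 in the wild type, and 0 fell in either (all genes rising: 26.3% and 20.7%). The list's sum was 279 to 320 FPKM in the wild type at 24 h and 611 to 689 at 72 h, against 571 to 629 and 1051 to 1311 in *lrx345*. *DIN1* was at 33.2, 30 and 34.6 FPKM in the wild type at 24 h and 120.3, 88.7 and 101 at 72 h. At 24 h *lrx345* stood at 39.9, 35.6 and 32.5, followed by 31.5, 48.3 and 32.6 at 72 h. Only the wild type at 72 h stood apart from the other groups, which overlapped, and the interaction was -1.60 (SE 0.24, adjusted p = 1.97e-05). *BCAT2*, of branched-chain amino acid breakdown (-1.76, SE 0.25, adjusted p = 9.23e-06), and *BT2* (-1.29, SE 0.28, adjusted p = 0.00107) were downward. *EXL2*, the highest of the list, rose in both genotypes with 0.084 (SE 0.13, adjusted p = 0.674).

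Photosynthesis genes fell in *lrx345*. Of the nuclear photosynthesis genes, 26 of 37 tested had a downward and 0 an upward interaction, with a median of -0.50, and 32 fell in *lrx345* against 11 in the wild type (all genes: 25.3% and 19.6%). Their summed level was 63045 to 67042 FPKM in the wild type at 24 h and 51542 to 57434 at 72 h, and 44710.0 to 45564 and 23127 to 27140.0 in *lrx345*. *LHCA2*, which codes for an antenna protein of photosystem I, was at 1443, 1370.0 and 1325 FPKM in the wild type at 24 h and 1194, 1362 and 1325 at 72 h. For *lrx345* the values were 1260.0, 1091 and 1113 at 24 h and 619.8, 663 and 545 at 72 h. All *lrx345* libraries at 72 h were below all others, and the interaction was -0.83 (SE 0.15, adjusted p = 1.69e-04). *PSBR* of photosystem II (-0.87, SE 0.18, adjusted p = 7.12e-04), the antenna gene *LHCB6* (-0.82, SE 0.16, adjusted p = 3.22e-04) and *LHCB1.3*, the list's highest member (-0.56, SE 0.15, adjusted p = 0.00572), moved alike. The *LHCB1* and *RBCS* copies are near-identical, and their single values are uncertain. The mitotic cell cycle list, by contrast, had 0 upward and 1 downward call among 24 tested members, the latter being *CYCA2;1*, named after its value was seen. Its median interaction was -0.21, and 13 members fell in *lrx345* and 12 in the wild type (all genes: 25.3% and 19.6%).

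Wall-loosening and water channel genes had more downward than upward interactions. Of the expansins and xyloglucan endotransglucosylases, 4 of 48 tested members had an upward and 20 a downward interaction, with a median of -0.54 on the log2 scale. *XTH22* (-1.82, SE 0.40, adjusted p = 0.00118), *XTH24* (-1.71, SE 0.20, adjusted p = 7.95e-07) and *XTH17* (-1.66, SE 0.31, adjusted p = 2.74e-04) were the largest downward ones, and *EXPA7* (3.54, SE 0.52, adjusted p = 1.50e-05), *EXPA18* (2.39, SE 0.38, adjusted p = 4.00e-05) and *XTH11* (2.81, SE 0.32, adjusted p = 5.99e-07) the largest upward ones. Among aquaporins, 3 of 30 tested members had an upward and 13 a downward interaction, with a median of -0.47 on the log2 scale. In *lrx345* 17 members rose and 4 fell, and in the wild type 17 rose and 3 fell (all genes: 26.3% and 25.3%, 20.7% and 19.6%). The list's sum was 3174 to 3567 FPKM in the wild type at 24 h and 6258 to 6898 at 72 h. In *lrx345* it was 2022 to 2083 and 2572 to 2636, a smaller rise. *PIP2C*, an aquaporin of the plasma membrane, was at 24.3, 16.5 and 18.8 FPKM in the wild type at 24 h and 78.0, 74.9 and 82.6 at 72 h. Those of *lrx345* were 37.2, 35.8 and 27.6 at 24 h and 23.4, 21.2 and 20.4 at 72 h. The wild type libraries at 72 h were above all others and *lrx345* fell, and the interaction was -2.62 (SE 0.17, adjusted p = 1.04e-10). *TIP1;1*, of the vacuolar membrane, was at 366, 284 and 305 FPKM in the wild type at 24 h and 775, 884 and 1017 at 72 h. In *lrx345* it was at 152, 167 and 133 at 24 h and 168, 149 and 128 at 72 h. It rose in the wild type only by this test, and the interaction was -1.51 (SE 0.18, adjusted p = 8.57e-07). *TIP1;2*, whose level was the highest of the list, had -0.74 (SE 0.15, adjusted p = 5.66e-04). *NIP5;1*, a boric acid channel (0.98, SE 0.19, adjusted p = 3.53e-04), and *NIP1;2* (0.88, SE 0.18, adjusted p = 6.45e-04) were upward.

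Root markers had the second highest median of the lists, after the heat shock genes. Of the suberin, Casparian strip and root hair genes, 20 of 27 tested members had an upward and 2 a downward interaction, with a median of 1.53 on the log2 scale. The downward ones were *MYB36* (-0.61, SE 0.22, adjusted p = 0.0385) and *LRX2* (-0.69, SE 0.22, adjusted p = 0.0202). In *lrx345* 22 members rose and 0 fell, and in the wild type 15 rose and 7 fell (all genes: 26.3% and 25.3%, 20.7% and 19.6%). The median genotype difference was -0.949 at 24 h and -0.947 at 72 h, so the narrowing in the genes below was not that of the list median. The list's summed level was 478 to 484 and 663 to 749 FPKM in the wild type at 24 h and 72 h and 160.0 to 182 and 365 to 381 in *lrx345*. *CASP1*, which codes for a membrane protein of the Casparian strip, was at 26.5, 22.6 and 22.2 FPKM in the wild type at 24 h and 48.7, 50.5 and 58.2 at 72 h. The *lrx345* levels were 0.146, 0.751 and 0.492 at 24 h and 8.44, 10.9 and 8.36 at 72 h. The *lrx345* libraries at 24 h were the lowest, they rose by 72 h but stayed below all wild type libraries, and the interaction was 3.11 (SE 0.35, adjusted p = 4.64e-07). *RHS19*, a root hair gene, was at 68.7, 75 and 67.9 FPKM in the wild type at 24 h and 124, 102 and 106 at 72 h. Levels in *lrx345* were 2.25, 3.60 and 1.5 at 24 h and 24.8, 34 and 27 at 72 h, in the same order, with 2.85 (SE 0.35, adjusted p = 1.54e-06). *PRP3*, of the root hair wall, had 2.27 (SE 0.41, adjusted p = 1.83e-04). The root hair gene *LRX1*, a member of the LRX family that is intact in *lrx345*, was at 23, 21.1 and 22.3 FPKM in the wild type at 24 h and 32.8, 32 and 39.6 at 72 h. The mutant libraries had 1.53, 1.49 and 1.26 at 24 h and 13, 15.3 and 11.9 at 72 h, and its interaction was 2.57 (SE 0.33, adjusted p = 3.30e-06). The root marker share of all counts moved with these genes, as given above, and its part in them was not tested.

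Among genes of sodium, potassium and proton transport, 10 of 22 tested members had an upward and 4 a downward interaction, with a median of 0.36 on the log2 scale, with 6 upward without wild type replicate 1 at 72 h and 5 without *lrx345* replicate 1 at 72 h, and 2 downward without wild type replicate 1 at 24 h, *lrx345* replicate 1 at 24 h or *lrx345* replicate 2 at 72 h. The plasma membrane proton pump gene *AHA2* was at 245, 239 and 267 FPKM in the wild type at 24 h and 164, 179.8 and 207 at 72 h. At 24 h *lrx345* stood at 147, 128 and 144, followed by 236, 202 and 244 at 72 h. It fell in the wild type and rose in *lrx345*, with 1.15 (SE 0.14, adjusted p = 8.93e-07). The endosomal antiporter gene *NHX6* (1.17, SE 0.14, adjusted p = 1.47e-06) and the potassium efflux channel gene *GORK* (0.98, SE 0.18, adjusted p = 1.82e-04) were upward, and *CBL10*, a calcium sensor of the SOS pathway (-1.0, SE 0.27, adjusted p = 0.00751), was downward. *HKT1*, which retrieves sodium from the xylem, had -2.17 (SE 0.50, adjusted p = 0.00201) and was named after its value was seen. In the LRX, FER and RALF list 3 of 13 tested members had an upward and 3 a downward interaction, 23.1% each way (all genes: 14.3% and 15%). The median was -0.20 on the log2 scale. *RALF1* (0.88, SE 0.24, adjusted p = 0.00648) was upward and the receptor kinase gene *THE1* (-0.62, SE 0.14, adjusted p = 0.00159) downward, whereas *FER*, named after its value was seen, had -0.12 (SE 0.11, adjusted p = 0.441).

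Of the clock genes, 6 of 16 tested members had an upward and 1 a downward interaction, with a median of 0.23 on the log2 scale. *PRR9* (1.72, SE 0.26, adjusted p = 2.09e-05), *ELF4* (1.57, SE 0.31, adjusted p = 4.39e-04) and *GI* (1.06, SE 0.13, adjusted p = 2.29e-06) were the largest upward members, and *CCA1* had 0.26 (SE 0.13, adjusted p = 0.138). The hour of collection is not given in the labels. Among autophagy genes 4 of 21 tested members (19.05%) had an upward and 0 a downward interaction (all genes: 14.3% and 15%). The median was 0.11 on the log2 scale, although 15 rose in *lrx345* and 15 in the wild type (all genes: 26.3% and 20.7%). *ATG8E*, which codes for a protein of the autophagosome membrane, had 37.0 ± 5.57 and 87.7 ± 13 FPKM in the wild type and 64.3 ± 6.55 and 238 ± 6.33 FPKM in *lrx345* at 24 and 72 h and 0.64 (SE 0.17, adjusted p = 0.00609). Of the flavonoid genes, 3 of 16 tested members (18.75%) had an upward and 5 (31.25%) a downward interaction, with a median of -0.36 on the log2 scale. *DFR*, of anthocyanin synthesis, was at 9.71, 9.94 and 9.20 FPKM in the wild type at 24 h and 7.91, 15.6 and 9.72 at 72 h. For *lrx345* the values were 49.4, 41.6 and 29.6 at 24 h and 25.1, 13.9 and 18.6 at 72 h. It fell in *lrx345* from levels above all wild type libraries, and the interaction was -1.28 (SE 0.32, adjusted p = 0.00389). *EGL3* was also downward (-1.69, SE 0.35, adjusted p = 7.87e-04), and *TT7* (0.91, SE 0.26, adjusted p = 0.0103) and *4CL3* (0.83, SE 0.20, adjusted p = 0.00283) were upward.

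**Figure D4:**
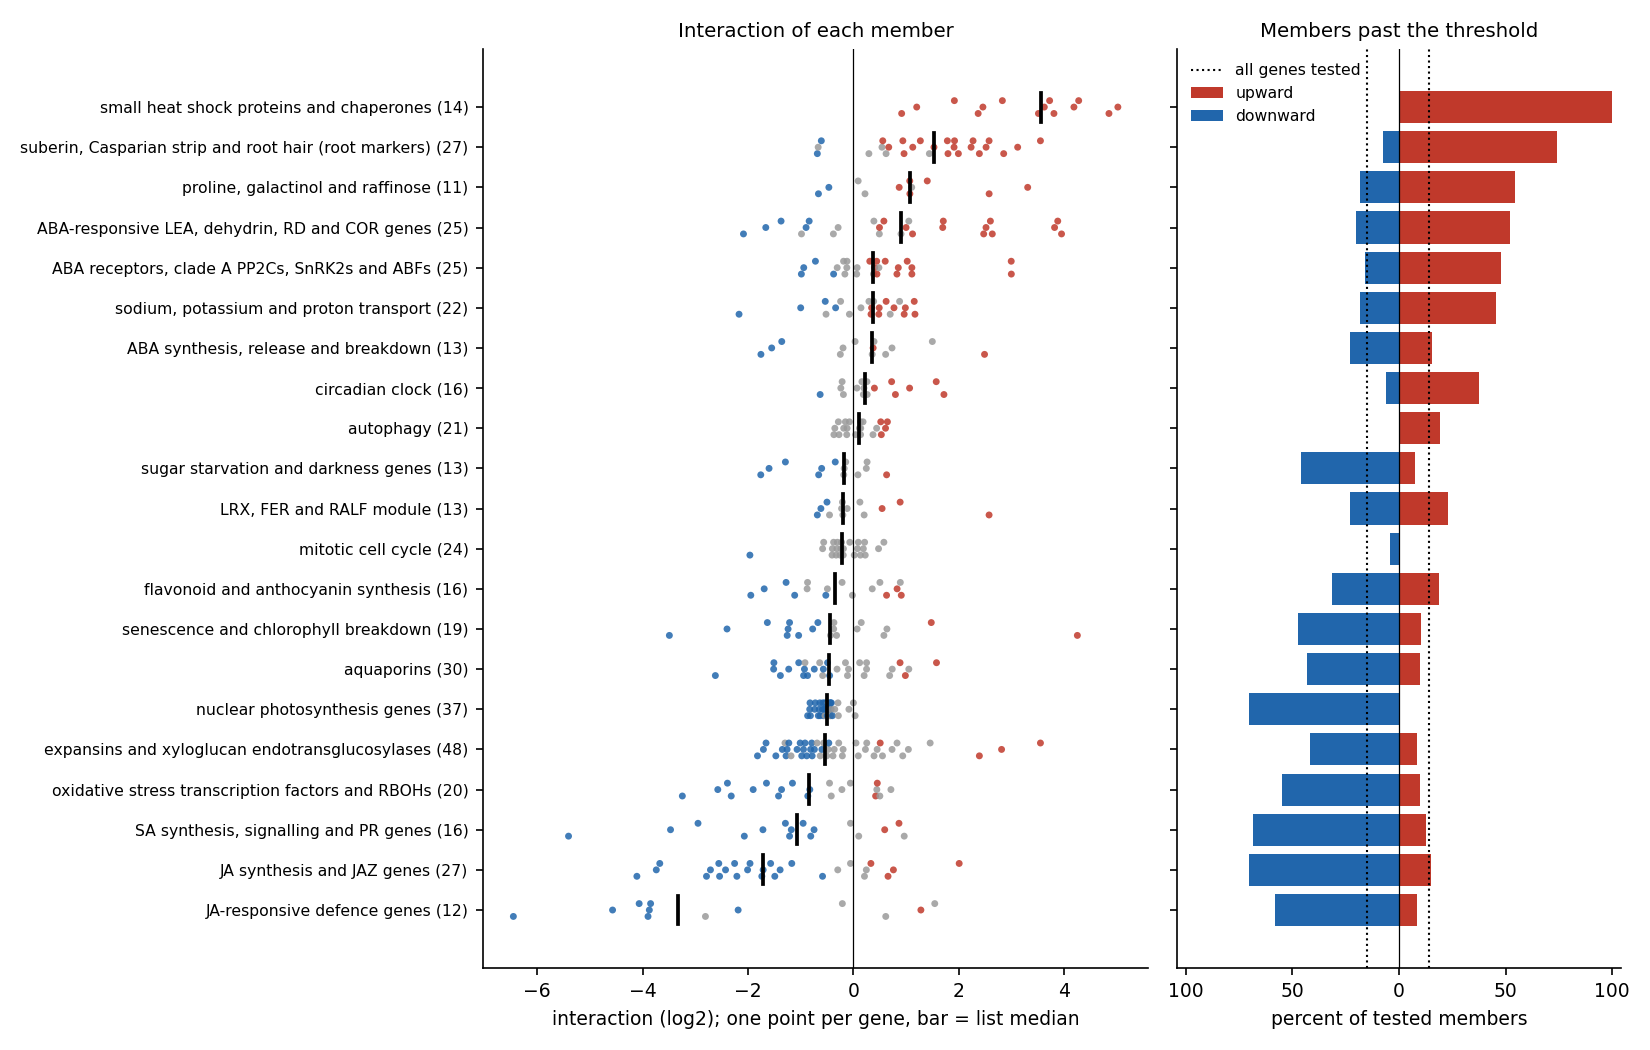
Interaction (log2, *lrx345* change minus wild type change) of each tested member of the gene lists as points, with the list median as a bar (grey points were not past the threshold, and the number of members is in brackets), beside the percentage of members called upward and downward. Heat shock and root marker lists lie mostly above 0, JA, SA and photosynthesis lists mostly below, and the shares over all genes tested are 14.3% upward and 15% downward.

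Among 23 stress genes that the published account of these data names, 11 had an upward and 7 a downward interaction. They were chosen on these samples, so that the count is no independent evidence of a direction. Those not yet given include the zinc finger gene *TZF4*, at 1.68, 1.52 and 0.839 FPKM in the wild type at 24 h and 2.59, 0.951 and 0.642 at 72 h. Those of *lrx345* were 2.61, 1.36 and 1.51 at 24 h and 33.7, 28.9 and 35.0 at 72 h. It was low in all wild type libraries and in *lrx345* at 24 h and high in *lrx345* at 72 h, with 4.03 (SE 0.54, adjusted p = 5.16e-06). *NADP-ME1*, a malic enzyme (2.72, SE 0.18, adjusted p = 1.41e-10), *DAA1* (2.41, SE 0.21, adjusted p = 1.03e-08) and the suberin transporter gene *ABCG6* (1.27, SE 0.31, adjusted p = 0.00299) were upward and *SAG14*, a blue copper protein, downward (-1.26, SE 0.32, adjusted p = 0.0046). *WRKY8* (-0.059, SE 0.35, adjusted p = 0.923) was not past the threshold, and its genotype difference was 3.12 at 24 h and 3.07 at 72 h.

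The interaction from 24 h to 72 h was set beside that from 0 h to 6 h, which uses other libraries and rests on 2 libraries of each genotype at 0 h. A wild type library at 0 h carries a replicate number in the count table that is not among its group's labels, and it was placed by genotype and time. In the early interval 1886 genes (8.64%) passed the test, of which 1136 (5.2%) had an upward and 750 (3.44%) a downward interaction. Of the genes that were upward early, 373 were downward late, which is 32.8% of the early and 11.4% of the late genes, and 167 (14.7% and 5.37%) were upward in both. Of the genes that were downward early, 240 (32% and 7.71%) were upward late and 159 (21.2% and 4.86%) downward late. Over all genes tested, 14.3% were upward and 15% downward late, beside 5.2% upward and 3.44% downward early. The shares of genes upward in both intervals, 14.7% and 5.37%, were thus near those over all genes. No test was made of these shares. *RD29A* had an early interaction of 0.036 (SE 0.29, adjusted p = 0.97) and *RD29B* of -2.1 (SE 1.8, adjusted p = 0.555), neither past the threshold. The early interaction was 0.46 (SE 0.55, adjusted p = 0.693) for *PR1* and -3.40 (SE 0.22, adjusted p = 2.43e-09) for *CASP1*.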

How the data were processed

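RNA-seq fragment counts of 12 libraries (seedlings of 2 genotypes at 24 and 72 h of 150 mM NaCl) were taken from the deposited table of 22 libraries. The authors mapped reads to TAIR10 with TopHat (TopHat2 in the submitters' processing notes) and, per the file headers, counted fragments over exons with featureCounts 1.4.6, without strand and leaving out fragments that fitted several places or genes. Antisense and overlapping genes can therefore not be told apart, and near-identical copies lose reads. Per the file headers, the table also holds each gene's exon length, which was used for FPKM.

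Counts were tested with edgeR 4.0.16 in R 4.3.3 (glmQLFit and glmQLFTest, TMM factors, filterByExpr by group) in 1 fit of 22 libraries in 8 groups, with the contrast (*lrx345* 72 h minus 24 h) minus (wild type 72 h minus 24 h) and Benjamini-Hochberg adjustment over 21831 genes. The authors' own test, cuffdiff, needs reads and was not run. Standard errors are the size of the log2 value divided by the square root of F and are approximate. FPKM used the TMM-scaled library totals, and means are given ± SD (n = 3). The 12 libraries held 7413461 to 14869697 counts. Replicates differed by more than counting noise (chi-square per degree of freedom 2.83 to 12.7 between pairs). Promoters were the 250 bases before the TAIR10 gene start, read for 21714 genes. The upstream sequence of a further gene is not reported here.

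The members, the gene lists and the rules were chosen with earlier results of these data known. The rule for named genes took the 10 largest upward and 10 largest downward interactions among genes with a mean count of at least 50 that were called in all 12 fits leaving out a library, up to 3 upward and 3 downward genes and the most abundant gene of each of 21 lists, and 23 genes named in the published account. Not all genes taken by the rule are described in the text, and some appear only by name. *ATG8D*, *ATG9*, *NBR1*, *TSO2* and *LLG1* are among those not described. Any other gene named is said to have been chosen after its value was seen. Lists are described by counts and medians, with no test of the list. Alternatives were edgeR's upper-quartile and DESeq2 size factors, DESeq2 1.42.0, a mean count of at least 20, no filter, only the 12 libraries, a replicate block, stricter thresholds, and leaving out each library. The heat shock motif and the bound for *PDF1.2b* were added after seeing the data. The script was tested on simulated counts.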

Additional observations from a re-analysis of the deposited data

Results flagged for a closer look

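The contrast is itself a difference between genotypes, so each of its 3111 upward and 3274 downward genes differed between *lrx345* and the wild type under the same contrast, by edgeR's quasi-likelihood test. Over all genes tested, 1.64% rose in *lrx345* and fell in the wild type, and 2.41% did the reverse. The rule took the largest interactions, which favours such genes, so that their number among the named genes follows in part from the rule. Listed here are the 45 of 147 genes named by the rule in which the genotypes also moved in opposite directions, each past the threshold. *AOS*, named after its value was seen, did so as well, with an interaction of -2.79 on the log2 scale (a rise in the wild type and a fall in *lrx345*).

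In 20 of them the transcript rose in *lrx345* and fell in the wild type, and the values that follow are interactions on the log2 scale. These include *NAS2* 5.64, *UMAMIT9* 5.15, *HSP17.4* 4.84, AT4G31520 4.84, AT3G02480 4.46, *TIN1* 4.33 and *LEA7* 3.94. They also include *RD29B* 3.81, *LTI30* 2.63, *HAI2* 2.99, *HAI3* 2.99, *SAG29* 4.25, *AHA2* 1.15 and *GOLS4* 2.57. The others are *GOLS1* 1.4, *ROF1* 1.2, *PRR9* 1.72, *RD29A* 1.70, AT1G16850 2.60 and *LEA4-5* 2.47.

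In 25 of them the transcript fell in *lrx345* and rose in the wild type, again with the interaction on the log2 scale. Among them were AT1G59950 -7.41, *NATA1* -6.18, AT5G61160 -5.84, *PR1* -5.40, AT3G23550 -4.89, AT2G43580 -4.77, *PDF1.2c* -4.57, AT1G33760 -4.37 and *PYL8* -0.99. Further values were *BGLU18* -1.75, *ZAT7* -3.25, *ERF105* -2.57, *LOX4* -3.67, *LOX2* -2.25, *ERF1* -4.06, *ORA59* -3.9, *PR2* -3.47 and *PR5* -2.95. The remaining values were *NYE2* -2.40, *NYE1* -1.63, *SAG21* -1.21, *XTH17* -1.66, *PIP2C* -2.62, *ERF6* -1.90 and *RBOHD* -0.83.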

How the results depend on the processing

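The counts of upward and downward genes stayed within 1.5 times of the reported ones under other normalization factors, DESeq2, both other count filters and the fit of the 12 libraries alone. With a size over 1 they were 1440 and 1282, against 3704 genes for the change in *lrx345* and 1972 for that in the wild type, and at an adjusted p under 0.01 they were 1939 and 2095, since these rules are stricter by construction. With single libraries left out they ranged from 2484 to 2999 and 2802 to 3382, and the changes within *lrx345* and the wild type from 9933 to 11422 and 7236 to 9042. Of the upward genes, 2078 were called in all 12 of these fits, and of the downward genes 2296. Upward genes made up 48.7% of the calls, 42.4% with DESeq2 size factors and 41.0% without a filter, and other factors moved the median interaction by at most -0.048 on the log2 scale. The deviations of same-numbered libraries from their group means had correlations of -0.196 to 0.169, and those of differently numbered libraries -0.173 to 0.219. No pairing by replicate number was seen, though 3 libraries in each group cannot exclude one. With the replicate number as a block the counts were 2653 upward and 2768 downward, against 2752 and 2853 for the same 12 libraries without the block, and the changes within genotypes were 10438 and 7770. The block moved no count by over 1.5 times. Of 147 genes named by the rule, 125 kept their call under other factors, DESeq2, the other filters, the 12 libraries alone, the block and each left-out library, and none turned its direction. The stricter thresholds were not applied to single genes. The 22 others are *RBOHC*, *NIP1;1*, *KAT1*, *LRX2*, *FLS1*, *DIN10*, *CYP707A3*, *AHA1*, *LRX3*, *COR47*, *COR413-TM1*, *NPR4*, *C4H*, AT3G24480, *MYB36*, *WRKY70*, *JAZ11*, *CHE*, *AAO3*, AT4G18670, *AKT1* and *LDOX*, and the cause was not tested. Small counts in lists also moved when 1 library was left out. The upward ABA synthesis count was 2 but 1 in 6 of the 12 fits. The upward oxidative stress count was 2 but 1 without wild type 72 h replicate 2 or *lrx345* 24 h replicate 2. The upward JA synthesis count was 4 but 2 in 7 of the 12 fits. The upward JA defence count was 1 but 2 without wild type 72 h replicate 1 or *lrx345* 24 h replicate 1. The upward SA count was 2 but 1 in 6 of the 12 fits. The upward starvation count was 1 but 0 without wild type 24 h replicate 2, wild type 72 h replicate 2 or *lrx345* 72 h replicate 2. The downward cell cycle count was 1 but 2 in 5 of the 12 fits. The downward root count was 2 but 0 without *lrx345* 72 h replicate 3 and 1 in 6 of the 12 fits. The upward aquaporin count was 3 but 5 without wild type 24 h replicate 2. The downward clock count was 1 but 0 without wild type 72 h replicate 1 or *lrx345* 24 h replicate 3. The interaction combines the errors of 4 groups of 3 libraries. In simulated counts, 200 of 21831 genes, all with an expected mean count of at least 50, were given an interaction. Of those of size 1, 80% were recovered, of those of size 2, 100%, and 7.22% of the calls were false. The data had far more called genes, 6385, and genes with lower counts, so that these shares need not hold for them. Interactions of size 1 could be missed at this depth.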
